A study of Homo sapiens with 12 samples.

Results

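The genes described here belong to families named for enzymes that place or remove methyl groups on histones, remove acetyl groups from them, or methylate DNA and oxidize its methyl groups, although some members act on other proteins. They were chosen by gene symbol alone, as the rows named KDM1 to KDM8 (with no letter or the letter A, B or C), KMT2 or KMT5, or SETD, HDAC, SIRT, DNMT or TET followed by a number, which gave 55 of the 20771 rows of the count table. There were 16 lysine demethylase genes (KDM), 16 lysine methyltransferase genes (KMT2, KMT5 and SETD), 17 deacetylase genes (HDAC and SIRT) and 6 genes of DNA methylation and its removal (DNMT and TET). KDM5C, with 2 to 10 reads in each library, fell below the filter on low counts, and the other 54 were tested.

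RNA sequencing was performed on RRM1 knockout derivatives (RRM1-KO) of EW8 and TC71, established lines of Ewing sarcoma, a tumor of bone and soft tissue driven by the EWS-FLI fusion protein. All 12 libraries came from cells in which the endogenous RRM1 gene, which encodes the catalytic subunit of ribonucleotide reductase, was targeted with CRISPR/Cas9 and one guide, and which carry a codon-optimized RRM1 transgene that is expressed when doxycycline is present. Each line gave 3 libraries labelled 0 h (doxycycline present) and 3 labelled 48 h (after its removal), and the question was how gene expression changes when RRM1 is lost. The knockout cells were single-cell clones, and no line without the knockout is among the libraries, so loss of RRM1, time in culture and removal of doxycycline itself cannot be told apart. The labels do not state whether the 3 libraries of a group were separate cultures, so the p-values measure the spread between these libraries, which may be technical.

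Reads from the endogenous RRM1 gene rose at 48 h in both lines, from 214, 166 and 317 to 1201, 1449 and 1514 reads in EW8 and from 422, 316 and 418 to 674, 707 and 778 in TC71. The codon-optimized transgene differs in sequence from the gene, so these counts do not check the labels, which are used as given. Total counts ran from 18468485 to 35698991 per library. All 11 Ewing sarcoma markers examined were detected, whereas the 5 rows for markers of other cell types (EPCAM, PTPRC, ALB, MLANA and CDH5) summed to a group mean of at most 1.85 CPM (read counts scaled to library size). Of 16 S phase genes, 12 were lower and 3 higher in EW8 at 48 h, and 13 were higher and 0 lower in TC71. Their summed level went from 5294 to 4291 CPM in EW8 and from 4036 to 5116 CPM in TC71, and the part of this in the results on the enzymes was not tested.

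Most histone lysine methyltransferases have a SET domain, and the methyl groups are removed by the flavin-dependent KDM1 enzymes or by the larger JmjC family, which needs iron, oxygen and 2-oxoglutarate. Acetyl groups are removed by the zinc-dependent HDACs and by the NAD-dependent sirtuins. DNA cytosines are methylated by DNMT1, which copies the pattern at replication, and by DNMT3A and DNMT3B, while the TET dioxygenases oxidize the methyl group. In Ewing sarcoma, KDM1A and class I HDACs are known as partners of EWS-FLI in gene repression.

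The promoters of the demethylase genes that rose more than 2-fold in EW8 are shown first, because they passed both thresholds there, followed by that of HDAC2, which fell. Each window holds 250 bases before and 50 after the start of the gene in RefSeq (GRCh38.p14), written 5′ to 3′ on the strand of the gene, and capitals mark the letters of the motifs searched.
KDM6B, chr17:7833967-7834266, plus strand: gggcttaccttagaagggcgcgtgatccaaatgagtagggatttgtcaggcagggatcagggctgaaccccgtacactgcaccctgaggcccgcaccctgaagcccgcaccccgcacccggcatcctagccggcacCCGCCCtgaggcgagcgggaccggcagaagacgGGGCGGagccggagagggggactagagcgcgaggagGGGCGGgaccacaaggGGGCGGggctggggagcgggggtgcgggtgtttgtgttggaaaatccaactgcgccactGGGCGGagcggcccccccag
KDM5B, chr1:202808372-202808671, minus strand: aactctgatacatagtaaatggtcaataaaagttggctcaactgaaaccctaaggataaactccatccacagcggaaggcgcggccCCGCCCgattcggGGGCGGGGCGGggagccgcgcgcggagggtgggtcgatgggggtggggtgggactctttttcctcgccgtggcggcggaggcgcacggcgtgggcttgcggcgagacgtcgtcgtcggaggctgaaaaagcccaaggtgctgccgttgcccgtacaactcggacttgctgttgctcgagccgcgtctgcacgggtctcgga
KDM6A, chrX:44872938-44873237, plus strand: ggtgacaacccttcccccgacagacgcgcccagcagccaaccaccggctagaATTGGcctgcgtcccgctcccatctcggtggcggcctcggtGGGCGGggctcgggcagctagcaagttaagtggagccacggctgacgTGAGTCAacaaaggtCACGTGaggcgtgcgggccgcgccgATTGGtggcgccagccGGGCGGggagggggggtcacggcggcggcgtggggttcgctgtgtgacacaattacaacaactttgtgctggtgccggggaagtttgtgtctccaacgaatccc
KDM3A, chr2:86441121-86441420, plus strand: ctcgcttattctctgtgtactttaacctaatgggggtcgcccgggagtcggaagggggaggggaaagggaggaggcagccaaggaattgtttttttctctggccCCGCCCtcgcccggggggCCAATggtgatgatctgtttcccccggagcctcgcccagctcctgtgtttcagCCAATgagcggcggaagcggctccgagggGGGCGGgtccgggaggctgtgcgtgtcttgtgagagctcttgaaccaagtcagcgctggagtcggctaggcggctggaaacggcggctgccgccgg
HDAC2, chr6:113971099-113971398, minus strand: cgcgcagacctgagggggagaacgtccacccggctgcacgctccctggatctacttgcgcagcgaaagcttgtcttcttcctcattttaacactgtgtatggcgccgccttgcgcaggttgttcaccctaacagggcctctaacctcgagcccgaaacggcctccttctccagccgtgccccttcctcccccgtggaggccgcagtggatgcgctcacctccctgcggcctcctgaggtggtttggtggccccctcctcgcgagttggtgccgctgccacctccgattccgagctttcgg

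The motifs were searched on both strands as exact letters: TGAGTCA for AP-1, TGACGTCA for CRE, CCGGAAG for ETS factors, TTCCCGC and, as another form, TTGGCGC for E2F, CACGTG for the E-box, GGGCGG for the GC box, the CCAAT box by its own letters, and GCGTGGGCG for EGR1, which can overlap a GC box. KDM6B held only GC boxes, 5 of them, and KDM5B 3, of which 2 share 1 base. KDM6A held 6 matches, among them the AP-1 letters 110 bases and an E-box 95 bases before the start. KDM3A held 2 CCAAT boxes and 2 GC boxes, and HDAC2 had no match. Of the 55 genes, 52 had a window in the table (HDAC5, SETD1B and SIRT7 did not). AP-1 letters stood in 3.85% of the 52 windows (KDM6A and KDM4C) and 4.95% of all 35116 promoters of the table, and the CRE letters in SIRT4 alone, 1.92% against 1.85%. GC boxes stood in 65.4% against 45%, ETS letters in 17.3% against 10.3%, E-boxes in 15.4% against 7.26% and CCAAT boxes in 34.6% of both. The E2F letters TTCCCGC stood in 7.69% against 6.55% and TTGGCGC in 5.77% against 3.04%, and the EGR1 letters in 0 of 52 against 0.795%. All promoters of the table include those of genes that were not expressed in these cells, and a match is a description of letters, not of a bound site.

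In EW8, KDM6B, KDM5B, KDM6A and KDM3A each rose more than 2-fold at 48 h, together with HDAC5, SETD4 and the scarce SIRT4. Passing the test means an adjusted p below 0.05 in edgeR's quasi-likelihood test with Benjamini-Hochberg adjustment over 16515 genes. Of the 54 enzyme genes, 29 passed as higher and 18 as lower in EW8, against 37.0% and 31.6% of all genes tested (68.6% in either direction). With a change above 2-fold required as well, 7 were higher and 0 lower, against 13.9% and 3.35% of all genes (17.2% in either direction). Their median log2 fold change was 0.12, beside 0.03 for all genes. When libraries were scaled by total counts alone, 31 were higher and 11 lower and the median was 0.25: TET3, SETD9, SIRT5, HDAC8, SIRT3, SETD3 and SETD1A no longer passed as lower, and SETD7 and KMT5A passed as higher. In TC71, 13 passed as higher and 15 as lower (22.9% and 19.2% of all genes, 42.1% in either direction), 0 changed by more than 2-fold (3.26% higher and 0.854% lower of all genes, 4.12% together), and the median was -0.01, beside 0.00. With total counts alone, 16 passed as higher and 10 as lower in TC71: SETD2, KMT2C, HDAC6, SETD3 and SETD6 no longer passed as lower, and TET2, SETD7 and KDM7A passed as higher. With 1 library left out, 10 to 13 were higher and 10 to 17 lower. A pass alone was therefore common in EW8, and the share of the enzyme genes that rose more than 2-fold was near that of all genes. In RNA from whole cultures, fewer cells that express a gene and less of its RNA per cell cannot be told apart.

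**Figure D1:**
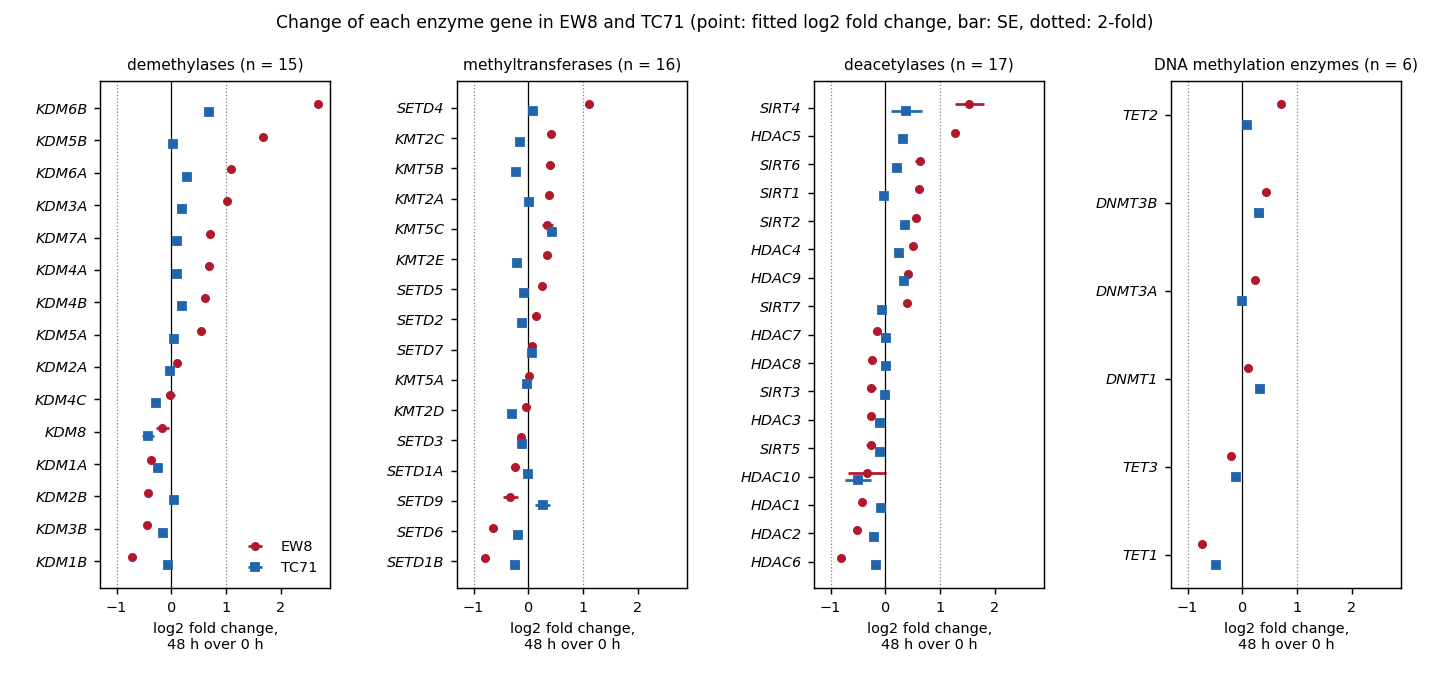
Fitted log2 fold change (48 h over 0 h) of each of the 54 tested enzyme genes, 1 panel per class, sorted by the change in EW8 (red circles), with TC71 as blue squares, bars as standard errors and dotted lines at a 2-fold change. KDM6B, KDM5B, KDM6A and KDM3A head the demethylases in EW8, and no TC71 point lies beyond a dotted line.

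By class, the counts were as follows, and no test compared the classes. The counts are of genes that passed the test. For comparison, the passing shares over all genes tested were 37.0% (higher) and 31.6% (lower) in EW8. The corresponding TC71 shares were 22.9% and 19.2%. Among 15 tested demethylase genes, 9 rose and 4 fell in EW8 (median 0.54), whereas 5 rose and 4 fell in TC71 (median 0.05). Among 16 methyltransferase genes, 8 rose and 5 fell in EW8 (median 0.10), and 1 rose and 8 fell in TC71 (median -0.11), where 2 rose and 4 fell with total counts alone. Among 17 deacetylase genes, 8 rose and 7 fell in EW8 (median -0.15), and 5 rose and 2 fell in TC71 (median 0.00). Among 6 genes of DNA methylation, 4 rose and 2 fell in EW8 (median 0.16), and 2 rose and 1 fell in TC71 (median 0.04). Summed per kilobase of annotated exon, the demethylases went from 113.4 ± 1.03 to 149.5 ± 3.53 CPM per kb in EW8 (mean ± SD, n = 3 libraries), while in TC71 they were at 118.7 ± 1.13 and 118.9 ± 2.04. Much of the EW8 rise came from KDM6B (3.12 to 19.8) and KDM4A (17.1 to 27.6), while the 4 genes that fell lowered the sum. Another gene on the same strand covers 40.2% of the KDM4A exon bases. The deacetylases as a whole were at 161.5 ± 1.90 and 156.9 ± 0.823 CPM per kb in EW8, with rises and falls inside the class. Several passes rested on small changes: those of KDM4A, SIRT6, SETD3, SETD6, HDAC6, KMT2C and SETD2 in TC71 and of DNMT1, KDM2A, SETD9 and SETD2 in EW8 were each lost in 3 to 9 of 19 alternative analyses.

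Per length, HDAC1 had the highest level of the 55 genes in all 4 groups, from 53.5 ± 1.41 CPM per kb in EW8 at 48 h to 77.2 ± 0.635 in TC71 at 0 h (mean ± SD, n = 3). Next in EW8 at 0 h were KMT5A (34.6 ± 0.605), SETD3 (34.5 ± 1.24) and DNMT1 (34.2 ± 1.62), whose means differed by less than 1 SD and have no clear order. HDAC10 and KDM5C were lowest in all 4 groups. The length used is that of all annotated exons of a gene, which can be longer than any one transcript.

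KDM6B and KDM6A (UTX) remove methyl groups from lysine 27 of histone H3 (H3K27), the mark set by Polycomb. KDM6B was at 21.9, 25.4 and 21.8 CPM in the 3 EW8 libraries at 0 h and at 146, 146 and 147 at 48 h. In TC71 it was at 27.3, 25.5 and 25.2 CPM at 0 h and 42.7, 36.7 and 45.4 at 48 h. The groups did not overlap in either line, and the rise was 6.41-fold in EW8 (log2 2.68 ± 0.06, SE, adjusted p = 3.29e-26) and 1.6-fold in TC71 (log2 0.68 ± 0.07, adjusted p = 6.90e-10).

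KDM6A was at 52.1, 50.3 and 49 CPM in EW8 at 0 h and 101, 110 and 109 at 48 h, and at 43.8, 39.9 and 40.7 at 0 h and 47.3, 52.2 and 52.4 at 48 h in TC71. It rose 2.12-fold in EW8 (log2 1.08 ± 0.05, adjusted p = 6.27e-19) and 1.22-fold in TC71 (log2 0.29 ± 0.05, adjusted p = 6.60e-05), again without overlap. The balance between them moved as well: the ratio of KDM6B to KDM6A per kb was 1.58, 1.9 and 1.67 in EW8 at 0 h and 5.42, 4.98 and 5.09 at 48 h. In TC71 the ratio was 2.34, 2.4 and 2.33 at 0 h and 3.39, 2.64 and 3.25 at 48 h. These ratios depend on the lengths used, 7392 bases of annotated exon for KDM6B and 27742 for KDM6A. By CPM alone, KDM6B was below KDM6A in every group but EW8 at 48 h. With the same lengths, the summed level of both per kb was 4.79 times as high at 48 h as at 0 h in EW8 and 1.49 times in TC71.

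**Figure D2:**
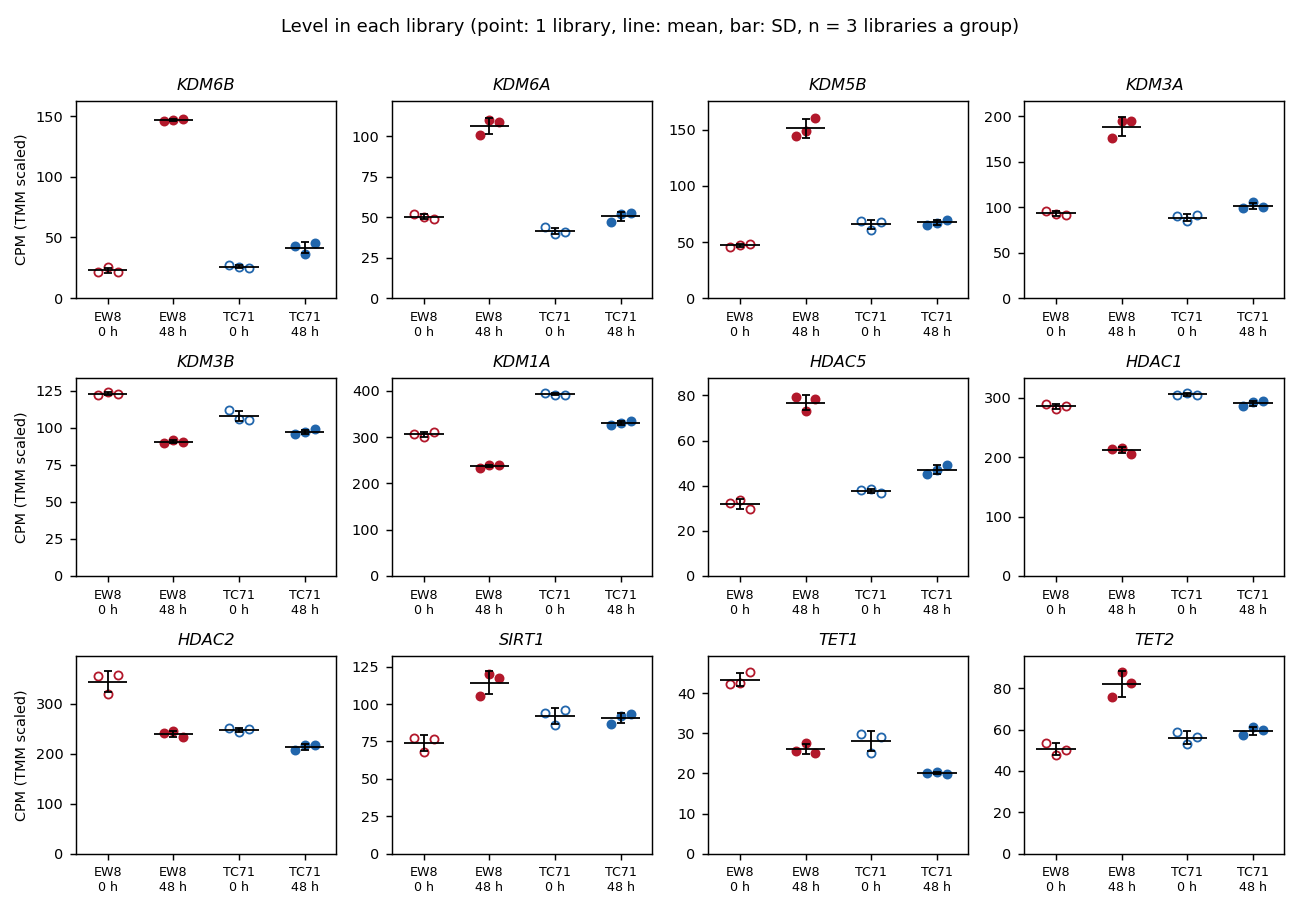
Level (CPM after TMM scaling, axes from 0) of 12 enzyme genes in every library, open points at 0 h and filled points at 48 h, with the mean (line) and SD (bar) of 3 libraries a group. KDM6B, KDM6A, KDM5B, KDM3A and HDAC5 stand highest in EW8 at 48 h, where KDM3B, KDM1A, HDAC1, HDAC2 and TET1 lie below their EW8 level at 0 h.

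Of the demethylases of lysine 4 of histone H3, the tested KDM5 genes rose and the KDM1 genes fell in EW8. KDM5B, which removes the mark of active promoters, was at 45.9, 47.3 and 48.5 CPM in EW8 at 0 h and 144, 149 and 160 at 48 h. In TC71 it was at 68.8, 61 and 67.6 CPM at 0 h and 65.3, 67.4 and 69.8 at 48 h, with overlapping groups. It rose 3.2-fold in EW8 (log2 1.68 ± 0.05, adjusted p = 1.91e-24), and the change in TC71 was 0.03 ± 0.05 (adjusted p = 0.625). Its paralog KDM5A went from 62.1, 60.7 and 60.9 to 83.6, 94.4 and 88.5 CPM in EW8 (log2 0.54 ± 0.05, adjusted p = 8.19e-12) and did not pass in TC71 (log2 0.05 ± 0.05). Per kb, KDM5B stood at 0.373 ± 0.0145 of the KDM5A level in EW8 at 0 h and 0.824 ± 0.0567 at 48 h, and at 0.539 ± 0.0301 and 0.534 ± 0.012 in TC71. Annotated exons cover 24899 bases of KDM5B and 12029 of KDM5A, and the ratio depends on these lengths. By CPM alone, mean KDM5B was below KDM5A in EW8 at 0 h (47.2 against 61.2) and above it at 48 h (151.3 against 88.9) and in both TC71 groups.

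KDM1A (LSD1) fell in both lines. It was at 306, 300 and 312 CPM in EW8 at 0 h and 234, 240 and 239 at 48 h (log2 -0.37 ± 0.04, adjusted p = 5.27e-11). In TC71 it was at 395, 392 and 391 CPM at 0 h and 325, 331 and 336 at 48 h (log2 -0.25 ± 0.04, adjusted p = 6.23e-07), with no overlap in either line. KDM1B (LSD2), its paralog, had the largest fall among the demethylases in EW8, from 43, 41.3 and 41.3 to 25.8, 24.8 and 26.2 CPM (log2 -0.71 ± 0.06, adjusted p = 1.10e-12), and did not pass in TC71 (log2 -0.06 ± 0.06, adjusted p = 0.416). The difference between the lines passed for KDM1B (-0.65 ± 0.08, adjusted p = 5.28e-08) and narrowly missed the threshold for KDM1A (-0.12 ± 0.05, adjusted p = 0.0514), which passed in 6 of 18 alternative analyses, DESeq2 among them.

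The genes for demethylases of lysine 9 of histone H3 mostly rose in EW8: 4 of 6 (KDM3A, KDM4A, KDM4B and KDM7A) passed as higher, KDM3B as lower, and KDM4C did not pass (log2 -0.02 ± 0.08). Among all genes tested, 37.0% passed as higher and 31.6% as lower in EW8. KDM3A (JMJD1A) was at 95.5, 92.9 and 90.8 CPM in EW8 at 0 h and 176, 194 and 195 at 48 h (log2 1.02 ± 0.05, adjusted p = 1.13e-19). In TC71 it went from 89.7, 84.6 and 91.2 to 98.5, 105 and 100 CPM (log2 0.20 ± 0.05, adjusted p = 0.00102). The EW8 change sits at the 2-fold line and was below it in 5 of the 19 alternative analyses. KDM3B, its paralog, moved the other way in EW8, from 122, 124 and 123 to 89.5, 91.6 and 90.5 CPM (log2 -0.44 ± 0.04, adjusted p = 4.50e-11), so that the ratio of KDM3A to KDM3B per kb went from 0.448 ± 0.0133 to 1.23 ± 0.0588. In TC71 KDM3B fell by 0.15 on the log2 scale (adjusted p = 0.00426) and the ratio went from 0.486 ± 0.0224 to 0.618 ± 0.0223. The size of the ratio depends on exon lengths of 13299 bases for KDM3A and 7872 for KDM3B. By CPM alone, mean KDM3A was slightly above KDM3B in TC71 at 48 h (101.4 against 97.2).

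KDM7A, KDM4A and KDM4B rose in EW8 by 0.71 ± 0.06, 0.69 ± 0.05 and 0.61 ± 0.06 on the log2 scale. In TC71 KDM4A (0.11 ± 0.04) and KDM4B (0.20 ± 0.06) passed as higher, and KDM7A (0.11 ± 0.06) did not pass. An annotated gene on the same strand covers 40.2% of the exon bases of KDM4A, so its reads can be shared. KDM4C (-0.29 ± 0.08) and KDM8 (-0.43 ± 0.11) passed as lower in TC71 and not in EW8, and KDM8 had the largest fall of the demethylases in TC71. The difference between the lines passed for KDM4C (adjusted p = 0.0447, lost in 12 of 18 alternative analyses) and not for KDM8 (adjusted p = 0.175). Of the demethylases of lysine 36, KDM2B fell in EW8 (-0.43 ± 0.05) and KDM2A rose slightly (0.11 ± 0.04), and neither passed in TC71.

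Among the methyltransferases, 5 genes of the rule, KMT2A (MLL1), KMT2C, KMT2D, SETD1A and SETD1B, encode catalytic subunits of COMPASS, the complexes that methylate lysine 4 of histone H3. In EW8 KMT2A and KMT2C passed as higher, SETD1B and, except with total counts alone, SETD1A as lower, and KMT2D did not pass (-0.04 ± 0.05). KMT2A went from 173, 176 and 161 to 205, 234 and 221 CPM in EW8 (log2 0.38 ± 0.05, adjusted p = 5.81e-09). SETD1B had the largest fall of the class in EW8. It went from 37.6, 39.8 and 38.9 to 22.8, 22.7 and 21.5 CPM in EW8 (log2 -0.80 ± 0.07, adjusted p = 4.01e-12) and from 25, 27.2 and 25.4 to 24, 18.8 and 22.4 in TC71 (log2 -0.25 ± 0.07, adjusted p = 0.0044). KMT2D had the largest fall of the class in TC71, from 146, 142 and 134 to 122, 106 and 117 CPM (log2 -0.30 ± 0.05, adjusted p = 8.01e-05).

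SETD4 had the largest rise of the methyltransferases in EW8. It was at 15.4, 15 and 13.9 CPM at 0 h and 31.2, 31.6 and 32.4 at 48 h (log2 1.11 ± 0.07, adjusted p = 1.15e-15), while the TC71 groups, at 20.9, 19.4 and 22.9 CPM at 0 h and 23.5, 22.4 and 21.4 at 48 h, overlapped (log2 0.09 ± 0.07, adjusted p = 0.327). SETD6, which methylates non-histone proteins such as RELA, fell in EW8 from 20.4, 19.8 and 20.9 to 14.5, 12.6 and 12 CPM (log2 -0.65 ± 0.08, adjusted p = 2.90e-09) and passed as lower in TC71 too (log2 -0.18 ± 0.07), with 11.3% of its exon bases under another gene of its strand. SETD5 rose in EW8 (0.26 ± 0.04), SETD3 passed as lower in both lines (-0.13 ± 0.04 and -0.12 ± 0.04) but in neither with total counts alone, SETD9, at 3.43 to 6.07 CPM, passed as lower in EW8 (-0.33 ± 0.14), and SETD7 passed in neither (0.07 ± 0.04 and 0.07 ± 0.04), though as higher in both with total counts alone.

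Of the enzymes that methylate lysine 20 of histone H4, KMT5A, which sets the first methyl group, did not pass in either line (0.01 ± 0.04 in EW8 and -0.02 ± 0.04 in TC71). KMT5C, which adds further methyl groups, was the only methyltransferase gene that passed as higher in both lines with TMM scaling in the fit of all libraries. It went from 10.2, 13.5 and 10.6 to 14.8, 13.8 and 14.3 CPM in EW8 (log2 0.35 ± 0.10, adjusted p = 0.00172) and from 15.3, 17.4 and 18 to 24.2, 21 and 22.7 in TC71 (log2 0.42 ± 0.08, adjusted p = 6.52e-05).

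KMT5B, KMT2E, KMT2C and SETD2 passed as higher in EW8 and as lower in TC71. These are 4 of the 54 enzyme genes (7.41%), all of them placed by symbol in the methyltransferase class, beside 1.22% of all genes tested. The opposite way went 0 enzyme genes, beside 1.6% of all genes. KMT5B was at 38.6, 36.4 and 39.1 CPM in EW8 at 0 h and 48.3, 51.7 and 50.3 at 48 h, and at 44.9, 47.7 and 47.7 at 0 h and 38, 39.4 and 42 at 48 h in TC71 (log2 0.39 ± 0.06 and -0.23 ± 0.05). KMT2E went from 88, 85 and 80.9 to 101, 110 and 108 CPM in EW8 and from 79, 76.6 and 78.5 to 65.8, 67.5 and 68.8 in TC71 (log2 0.33 ± 0.05 and -0.21 ± 0.05). The groups of these 2 genes did not overlap in either line. KMT2C (0.41 ± 0.05 and -0.16 ± 0.05) and SETD2, the enzyme that trimethylates lysine 36 of histone H3 (0.13 ± 0.04 and -0.12 ± 0.04), moved by less in TC71 and lost the TC71 pass in 4 alternative analyses each. SETD2 also lost its EW8 pass in 3, and the groups overlapped for KMT2C in TC71 and for SETD2 in EW8.

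**Figure D3:**
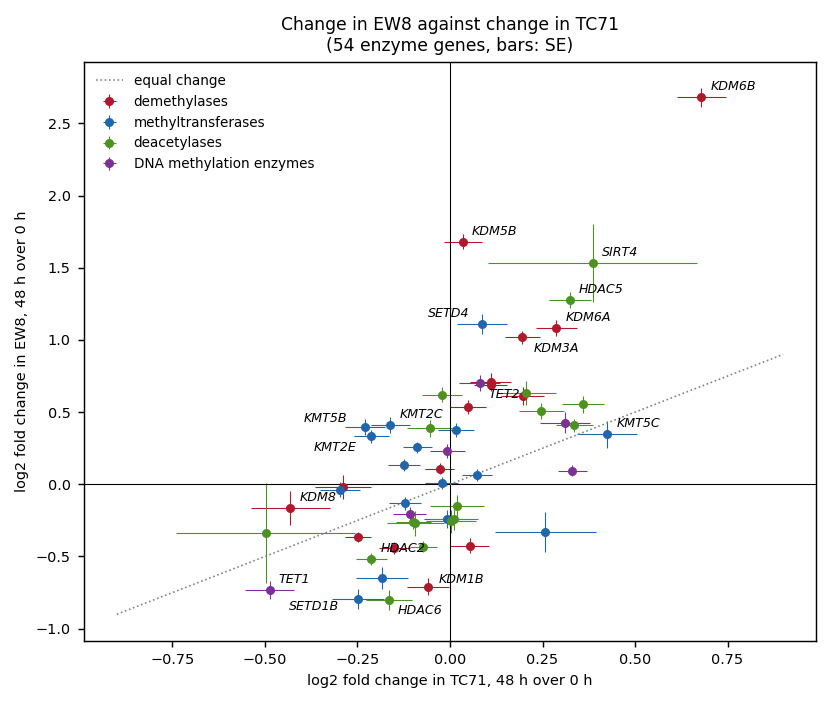
Log2 fold change (48 h over 0 h) of the 54 enzyme genes in TC71 (x axis) and EW8 (y axis), colored by class, with standard errors and a dotted line of equal change. KDM6B and KDM5B lie farthest above the line, KMT5B, KMT2E and KMT2C fall in the upper left quadrant, and the lower right quadrant holds no gene that passed in both lines.

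Within the deacetylases, all 4 class I genes, whose enzymes are the main nuclear histone deacetylases, fell in EW8 and most class IIa genes rose. Among all genes tested, 31.6% passed as lower and 37.0% as higher in EW8. HDAC1 was at 290, 282 and 286 CPM in EW8 at 0 h and 214, 216 and 206 at 48 h (log2 -0.43 ± 0.04, adjusted p = 1.82e-12). In TC71 HDAC1 was at 305, 309 and 304 CPM at 0 h and 286, 293 and 294 at 48 h (log2 -0.07 ± 0.04, adjusted p = 0.108). HDAC2 went from 355, 319 and 357 to 241, 245 and 233 CPM in EW8 (log2 -0.52 ± 0.04, adjusted p = 2.96e-13) and from 250, 244 and 249 to 207, 217 and 217 in TC71 (log2 -0.21 ± 0.04, adjusted p = 8.44e-05), where it was the only class I gene to pass and had the largest fall of the deacetylases that passed. HDAC3, the catalytic subunit of the NCOR complex, and HDAC8 fell by less in EW8 (-0.26 ± 0.05 and -0.24 ± 0.07), and HDAC8 did not pass when libraries were scaled by total counts alone (log2 -0.12). Summed per kb, class I went from 108.3 ± 1.86 to 80.6 ± 1.55 CPM per kb in EW8 and from 106.8 ± 0.57 to 99.99 ± 1.33 in TC71 (mean ± SD, n = 3).

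The class IIa genes, whose enzymes shuttle between nucleus and cytoplasm, went the other way in 3 of 4 cases. HDAC4, HDAC5 and HDAC9 passed as higher in both lines, and HDAC7 did not pass in either (-0.15 ± 0.08 and 0.02 ± 0.07). HDAC5 was at 32.4, 33.7 and 29.6 CPM in EW8 at 0 h and 79.1, 73.1 and 78.3 at 48 h (log2 1.28 ± 0.06, adjusted p = 3.69e-20). In TC71 HDAC5 was at 38, 38.4 and 36.8 CPM at 0 h and 45.3, 46.8 and 49.3 at 48 h (log2 0.32 ± 0.06, adjusted p = 1.46e-05), with no overlap. The antisense gene G6PC3 covers 24% of the exon bases of HDAC5, and whether counting used the strand is not given in the sources used here. HDAC4 rose by 0.51 ± 0.06 in EW8 and 0.25 ± 0.06 in TC71, and HDAC9 by 0.41 ± 0.05 and 0.34 ± 0.05, the largest rise of an HDAC gene in TC71. HDAC5 stood at 1.45 ± 0.112 of the HDAC4 level per kb in EW8 at 0 h and 2.45 ± 0.049 at 48 h, and at 2.34 ± 0.114 and 2.47 ± 0.203 in TC71. This ratio rests on exon lengths of 7618 bases for HDAC5 and 14179 for HDAC4. By CPM alone, mean HDAC5 was below HDAC4 in EW8 at 0 h (31.9 against 41.1).

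HDAC6, the cytoplasmic tubulin deacetylase of class IIb, had the largest fall among the deacetylases in EW8. It was at 47, 55.5 and 45.2 CPM at 0 h and 29.3, 28.3 and 26.6 at 48 h (log2 -0.80 ± 0.07, adjusted p = 2.88e-11). In TC71 HDAC6 was at 62.8, 68.2 and 68.4 CPM at 0 h and 63.9, 58.2 and 55.8 at 48 h (log2 -0.17 ± 0.06, adjusted p = 0.0329), where the groups overlapped and the pass was lost in 7 alternative analyses. HDAC10, at 0.526 to 1.78 CPM, did not pass in either line.

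**Figure D4:**
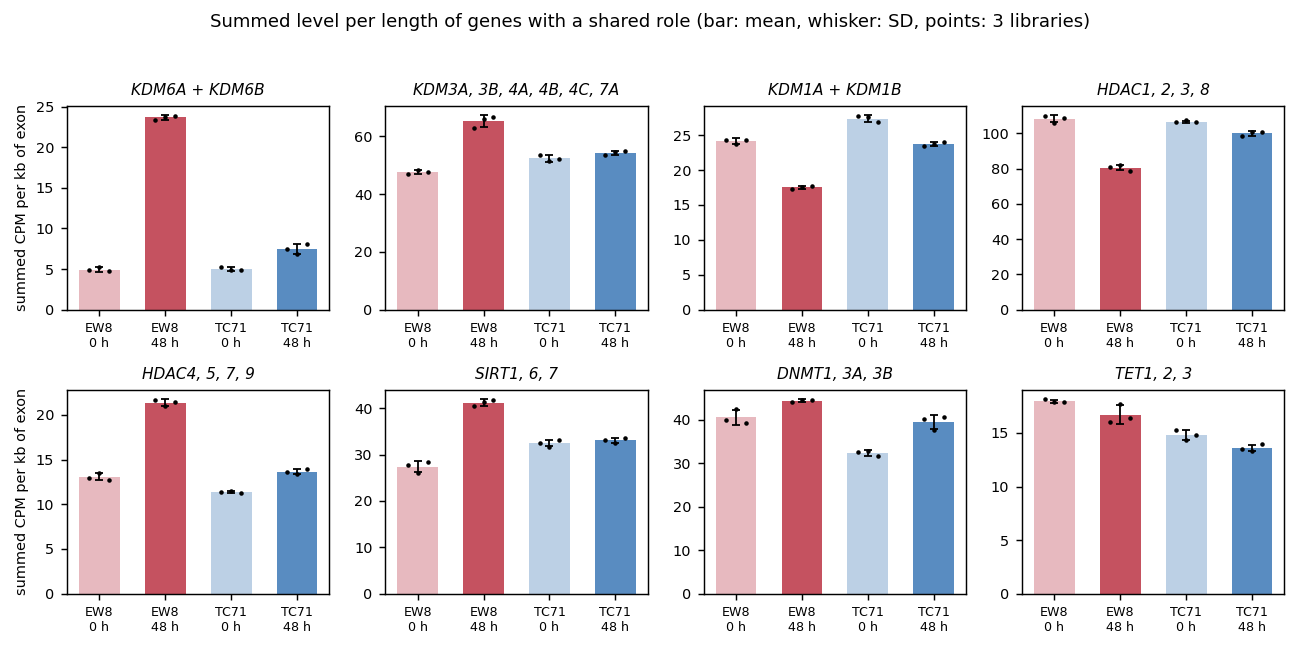
Summed level per kilobase of annotated exon (bars: mean of 3 libraries, whiskers: SD, points: libraries, axes from 0) of genes with a shared role in each group. In EW8 at 48 h the KDM6 pair, class IIa HDACs and SIRT1, SIRT6 and SIRT7 are higher, and the KDM1 pair and class I HDACs lower, than at 0 h.

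Of the 7 sirtuin genes, 5 passed as higher and 2 as lower in EW8, beside 37.0% and 31.6% of all genes tested. Those of the nuclear sirtuins SIRT1, SIRT6 and SIRT7 and of the mainly cytoplasmic SIRT2 were among the higher ones. SIRT1 was at 77, 68.1 and 76.9 CPM in EW8 at 0 h and 105, 120 and 117 at 48 h (log2 0.62 ± 0.05, adjusted p = 6.47e-12). In TC71 SIRT1 was at 93.9, 86.2 and 96.1 CPM at 0 h and 86.9, 91.9 and 93.5 at 48 h, with overlapping groups (log2 -0.02 ± 0.05, adjusted p = 0.77). SIRT6 rose by 0.63 ± 0.08 in EW8 and 0.21 ± 0.08 in TC71, and SIRT7 by 0.39 ± 0.06 in EW8 without a pass in TC71 (-0.05 ± 0.06). SIRT2 went from 27.5, 30.9 and 26.8 to 41.5, 39.8 and 42.8 CPM in EW8 and from 32.5, 33.3 and 32.2 to 41.3, 41.9 and 42.6 in TC71 (log2 0.55 ± 0.06 and 0.36 ± 0.06), the largest rise of a deacetylase gene that passed in TC71.

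Of the mitochondrial sirtuins, SIRT3 (-0.26 ± 0.08) and SIRT5 (-0.27 ± 0.09) passed as lower in EW8, and neither pass held when libraries were scaled by total counts alone. SIRT4 had the largest rise of the deacetylases in EW8 but few reads: 19, 9 and 20 at 0 h and 42, 32 and 39 at 48 h. Its log2 fold change was 1.53 ± 0.27 (adjusted p = 7.42e-06), and 0.39 ± 0.28 in TC71 (adjusted p = 0.283), where the reads were 20, 23 and 12 at 0 h and 25, 35 and 26 at 48 h.

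Of the genes of DNA methylation, TET1 fell in both lines while TET2 rose in EW8. TET1 was at 42.3, 42.6 and 45.2 CPM in EW8 at 0 h and 25.7, 27.6 and 25.1 at 48 h (log2 -0.73 ± 0.06, adjusted p = 2.92e-12). In TC71 it was at 29.8, 25.2 and 29.2 CPM at 0 h and 20.1, 20.3 and 19.8 at 48 h (log2 -0.49 ± 0.07, adjusted p = 2.63e-07). TET2 went from 53.5, 47.8 and 49.9 to 75.5, 87.7 and 82.7 CPM in EW8 (log2 0.70 ± 0.06, adjusted p = 4.03e-13) and from 59, 53.1 and 56.3 to 57.3, 61.2 and 59.8 in TC71 (log2 0.08 ± 0.06, adjusted p = 0.253). The ratio of TET1 to TET2 per kb was 1.36, 1.53 and 1.55 in EW8 at 0 h and 0.583, 0.54 and 0.521 at 48 h, and 0.865, 0.813 and 0.888 in TC71 at 0 h and 0.602, 0.568 and 0.569 at 48 h, without overlap in either line. Exon lengths of 9612 bases for TET1 and 16474 for TET2 enter this ratio, and by CPM alone TET1 was below TET2 in every group. TET3 passed as lower in EW8 (-0.20 ± 0.05), though not with total counts alone, and narrowly missed the threshold in TC71 (-0.11 ± 0.05, adjusted p = 0.0501), where it passed as lower in 5 of 19 alternative analyses.

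DNMT1, the maintenance methyltransferase, was at 515, 555 and 509 CPM in EW8 at 0 h and 556, 567 and 564 at 48 h, and at 383, 387 and 370 at 0 h and 487, 453 and 494 at 48 h in TC71. It rose in TC71 (log2 0.33 ± 0.04, adjusted p = 1.77e-08), and the small change in EW8 (log2 0.09 ± 0.04, adjusted p = 0.0303) lost its pass in 9 of 19 alternative analyses. Of the 16 S phase genes, 13 were higher in TC71, as DNMT1 was, beside 22.9% of all genes tested. In EW8, where DNMT1 passed as higher, 3 of them were higher and 12 lower, beside 37.0% and 31.6% of all genes. The part of the S phase genes in the DNMT1 result was not tested. DNMT3B went from 19.7, 18.9 and 17.8 to 25.7, 24.1 and 25.8 CPM in EW8 (log2 0.43 ± 0.07, adjusted p = 3.01e-06) and from 20.5, 22.4 and 21.4 to 27.8, 24.1 and 27.6 in TC71 (log2 0.31 ± 0.07, adjusted p = 3.28e-04). DNMT3A rose in EW8 (0.23 ± 0.05) and did not pass in TC71 (-0.01 ± 0.05).

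The change differed between the lines for most of the enzyme genes. The difference, EW8 change minus TC71 change, uses the same libraries as the comparisons above, and it passed as positive for 26 and as negative for 15 of the 54 genes, against 25.7% and 22.4% of all genes (48.1% together). A positive difference above 2-fold was found for 4 and a negative one for 0, against 7.28% and 0.981% (8.26% together). It was 2.001 ± 0.09 for KDM6B (adjusted p = 2.69e-17), 1.65 ± 0.07 for KDM5B (adjusted p = 1.75e-18), 1.15 ± 0.40 for SIRT4 (adjusted p = 0.0174) and 1.02 ± 0.10 for SETD4 (adjusted p = 1.94e-10). Without EW8 0 h replicate 3 or TC71 48 h replicate 3, only KDM6B and KDM5B remained past both thresholds, and SIRT4 lost its pass of the test without EW8 0 h replicate 3 or TC71 0 h replicate 2. HDAC5 (0.95 ± 0.08), KDM3A (0.82 ± 0.07) and KDM6A (0.79 ± 0.08) followed below the 2-fold line. For all 4 class I HDAC genes the difference passed as negative, from -0.36 for HDAC1 to -0.16 for HDAC3 (adjusted p = 0.0485), although for HDAC3 and HDAC8 this was lost in 11 and 6 of 18 alternative analyses. For HDAC9 (0.07 ± 0.07), KMT5C (-0.08 ± 0.13) and DNMT3B (0.12 ± 0.10), which passed as higher in both lines, the difference did not pass. Across the 54 genes, 46 had a larger absolute log2 change in EW8 than in TC71, and the same share over all genes was not computed. The median absolute log2 change of the 54 genes was 0.4094 in EW8 and 0.1555 in TC71. Over all genes tested it was 0.441 and 0.201, so the larger changes in EW8 were not particular to the enzyme genes.

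At 0 h, before the removal of doxycycline, 20 of the 54 genes were higher and 25 lower in EW8 than in TC71, against 32.8% and 32.9% of all genes (65.7% together). Beyond 2-fold stood 1 in each direction, against 4.77% and 11.9% (16.7% together). KMT2A, the gene of MLL1, was at 173, 176 and 161 CPM in EW8 and 85.6, 82.3 and 84 in TC71 (log2 1.01 ± 0.05, adjusted p = 2.05e-19), and an annotated gene on the same strand covers 18.3% of its exon bases. HDAC10 had 12, 15 and 31 reads in EW8 and 35, 36 and 43 in TC71 (log2 -1.01 ± 0.27, adjusted p = 0.0014), and MAPK12, on the same strand, covers 55.8% of its exon bases. Both differences lay near the 2-fold line and fell below it when single libraries were left out. HDAC9 (0.85 ± 0.05), KMT2D (0.77 ± 0.05), KMT5A (0.70 ± 0.04) and TET1 (0.63 ± 0.06) were also higher in EW8, and KMT5C (-0.58 ± 0.09), KDM4B (-0.57 ± 0.06), SETD4 (-0.52 ± 0.07) and KDM5B (-0.48 ± 0.05) lower. KDM5B and SETD4 thus started lower in EW8 and ended higher at 48 h, at 144, 149 and 160 CPM in EW8 against 65.3, 67.4 and 69.8 in TC71 for KDM5B.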

How the data were processed

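RNA from 12 libraries (EW8 and TC71, 0 h and 48 h, n = 3 each) was measured by polyA-selected sequencing (TruSeq Stranded mRNA). The authors checked reads with FastQC, mapped them to hg38 with STAR and deposited raw read counts per gene (not normalized) with symbols. The counting tool, annotation and strand setting are not given in the sources used here. From these counts, edgeR 4.0.16 (limma 3.58.1, R 4.3.3) kept 16515 of 20771 genes (filterByExpr, minimum count 10, minimum total 15), scaled them by TMM and fitted the 4 groups together with the robust quasi-likelihood test, without a block, with Benjamini-Hochberg adjustment over all genes tested. The study's test, DESeq2 1.42.0, was an alternative. SE is the absolute log2 fold change divided by the square root of F. The adjusted p threshold was 0.05 and the fold threshold 2. Depth was 18468485 to 35698991 counts per library. CPM per kb used GENCODE 44 exons. The fit was tested on simulated data.

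Described in full were the enzyme genes past both thresholds in any comparison and, per class and line, the gene with the largest rise and fall that passed; of each related list, up to 2 rises and 2 falls. 1 related list is not reported here. The genes and lists were chosen with earlier results of these data known. Replicate numbers did not pair the samples (correlation of same-numbered libraries -0.138 to -0.0147). No replicate pair agreed within sampling noise (chi-square per gene 2.06 to 9.62). Alternatives were another scaling (DESeq2 size factors, total counts), no filter, DESeq2, a replicate block, each line alone, a fit that is not robust, and leaving out each library. The deposited descriptions were not used.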

Additional observations from a re-analysis of the deposited data

Results flagged for a closer look

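The 48 h change differed between EW8 and TC71 by the test of the difference itself (edgeR's quasi-likelihood test, Benjamini-Hochberg adjusted) beyond 2-fold for 4 enzyme genes: by 2.001 ± 0.09 on the log2 scale for KDM6B (adjusted p = 2.69e-17), 1.65 ± 0.07 for KDM5B (adjusted p = 1.75e-18), 1.02 ± 0.10 for SETD4 (adjusted p = 1.94e-10) and 1.15 ± 0.40 for SIRT4 (adjusted p = 0.0174). KDM6B and KDM5B stayed beyond 2-fold and past the test in every alternative analysis of this comparison. SETD4 fell below 2-fold without EW8 0 h replicate 2 (0.998) or 3 (0.957), TC71 0 h replicate 3 (0.956) or TC71 48 h replicate 3 (0.984). SIRT4, with 9 to 42 reads, lost its call without EW8 0 h replicate 3 (1.05, adjusted p = 0.0567), TC71 0 h replicate 2 (0.846, adjusted p = 0.106) or TC71 48 h replicate 3 (0.98, adjusted p = 0.0482).

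For 4 genes of the methyltransferase class, as assigned by symbol, the change passed in both lines with opposite signs, higher in EW8 and lower in TC71, and the difference passed: 0.62 ± 0.08 for KMT5B (adjusted p = 3.88e-08), 0.57 ± 0.08 for KMT2C (adjusted p = 1.00e-07), 0.54 ± 0.07 for KMT2E (adjusted p = 2.62e-08) and 0.26 ± 0.06 for SETD2 (adjusted p = 7.14e-04). KMT5B and KMT2E kept the pass in both lines under every alternative run, whereas KMT2C lost that in TC71 in 4 of 19 alternatives, and SETD2 lost that in TC71 in 4 and that in EW8 in 3, without EW8 0 h replicate 2 or 3 or EW8 48 h replicate 2.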

How the results depend on the processing

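Of the 47 enzyme genes that passed in EW8, 37 passed under every alternative, and of 28 in TC71, 18 did. Scaling by total counts alone, which shifted the median of all genes by 0.126 in EW8 and by -0.134 between the lines at 0 h, left 11 genes lower in EW8 and 0 more than 2-fold higher at 0 h, and moved the medians to 0.25 in EW8, 0.0434 in TC71, 0.25 for the difference and -0.20 at 0 h. The 0 h median was -0.0906 without the filter, and the EW8 median 0.0937 with each line fitted alone. With 1 library left out, the median ran from 0.0775 to 0.15 in EW8, from -0.0221 to -0.00297 in TC71, from 0.14 to 0.20 for the difference and from -0.0865 to -0.0454 at 0 h. Genes beyond 2-fold numbered 2 to 4 for the difference (higher), and 0 to 1 in each direction at 0 h. KMT2A at 0 h was below 2-fold with total counts (0.88) and without EW8 0 h replicate 2 or TC71 0 h replicate 2, and HDAC10 without EW8 0 h replicate 1 (-0.80), TC71 0 h replicate 2 (-0.96) or replicate 3 (-0.93). KDM3A in EW8 ran from 0.97 to 1.14. In TC71, passes were lost without 0 h replicate 1 (SETD2, KDM3B, KMT2C, SETD3, SETD6 and SIRT6), 0 h replicate 2 (KDM4A and HDAC6), 0 h replicate 3 (KDM4A, KDM4B, KMT2C, HDAC6, SETD3, SETD6 and SIRT6), 48 h replicate 1 (KMT2C, SETD3, SETD6 and SIRT6), 48 h replicate 2 (KDM4A, HDAC6 and SETD1B) or 48 h replicate 3 (KDM4A, SETD2, HDAC6, SETD6 and SIRT6). In EW8 they were lost without 0 h replicate 1 (SETD9, KDM2A and DNMT1), 0 h replicate 2 (SETD2 and KDM2A), 0 h replicate 3 (SETD2, SETD9, KDM2A and DNMT1), 48 h replicate 2 (SETD2, SETD9 and DNMT1) or 48 h replicate 3 (SETD9, KDM2A and DNMT1). Leaving out a library of the other line also ended passes: TC71 0 h replicate 1 that of DNMT1 in EW8, EW8 0 h replicates 1 and 3 those of KDM4A and SIRT6 in TC71, and EW8 48 h replicate 3 that of KDM4A. Total counts alone ended those of HDAC8, SETD1A, SETD3, SETD9, SIRT3, SIRT5 and TET3 in EW8 and of HDAC6, KMT2C, SETD2, SETD3 and SETD6 in TC71. With a replicate block, 27 genes were higher and 17 lower in EW8 and 11 and 11 in TC71, 24 and 11 for the difference and 21 and 25 at 0 h. The numbers did not pair the samples. SIRT4 and HDAC10 had few reads, and the part of depth in their results was not tested. The cause of these shifts was not tested.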

Other observations

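Related genes outside the symbol rule were examined as lists. Of 7 other histone demethylase genes, 4 passed as higher and 2 as lower in EW8, against 4 and 1 in TC71. JMJD1C, a relative of KDM3A, rose in both lines (1.498 ± 0.05 in EW8 and 0.37 ± 0.05 in TC71, log2 ± SE), PHF8 rose in EW8 (0.79 ± 0.05) and did not pass in TC71 (0.08 ± 0.05), whereas RIOX2 fell in both (-0.85 ± 0.06 and -0.58 ± 0.06), and PHF2 fell in EW8 (-0.30 ± 0.05) and rose in TC71 (0.19 ± 0.05). Of 24 other histone methyltransferase genes, EW8 had 7 higher and 14 lower, TC71 4 higher and 7 lower, with SETDB2 (1.11 ± 0.07) and SETDB1 (0.50 ± 0.05) highest and EHMT2, the G9a gene (-0.87 ± 0.05), and CARM1 (-0.69 ± 0.05) lowest in EW8. Of 13 histone acetyltransferase genes, 6 were higher and 3 lower in EW8, and 2 were higher and 3 lower in TC71. CREBBP (0.53 ± 0.05) and EP300 (0.50 ± 0.04), the paralogous acetyltransferases, rose in EW8, and KAT8, which acetylates histone H4, fell in both lines (-0.70 ± 0.06 and -0.17 ± 0.06).

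Of 25 genes for subunits of the corepressor complexes that hold HDAC1, HDAC2 or HDAC3, the EW8 test called 7 higher and 11 lower and the TC71 test 4 and 9. CHD4, the ATPase of the NuRD complex (-0.87 ± 0.04), and SIN3A, the scaffold of the SIN3 complex (-0.86 ± 0.04), had the largest falls in EW8, and MIDEAS (1.07 ± 0.06) and DNTTIP1 (0.64 ± 0.06), both partners of HDAC1 and HDAC2, the largest rises. Of 12 COMPASS subunit genes, 2 rose (HCFC2, 1.42 ± 0.07, and RBBP5, 0.59 ± 0.06) and 8 fell in EW8, led by PAXIP1 (-0.92 ± 0.06), while TC71 had 2 higher and 3 lower. In EW8, 37.0% of all genes tested passed as higher and 31.6% as lower, and in TC71 22.9% and 19.2%. Of 16 G2/M genes, 5 were higher and 8 lower in EW8 (5 and 7 in TC71), and among the 11 Ewing sarcoma markers 5 were higher and 6 lower in EW8 (5 and 5 in TC71).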
